A study of Mus musculus with 2 samples.

Results

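The account covers 7 microRNAs (miRNAs) of the vessel wall in mouse lung, mmu-miR-126-3p, mmu-miR-126-5p, mmu-miR-10a-5p, mmu-miR-10b-5p, mmu-miR-218-5p, mmu-miR-221-3p and mmu-miR-222-3p (the mouse prefix mmu is left out below where it is not needed). They were taken by probe name from an array of 1141 mouse miRNA probes with 3 repeat spots each, and all 7 were found. The MCT group was 1 lung sample of wild-type mice treated with monocrotaline (MCT) for 30 days, and the treatment note gives an age of 14 weeks without saying at which point. MCT, an alkaloid of Crotalaria plants, damages the endothelium of the lung and serves as a rodent model of pulmonary hypertension. The untreated group was 1 lung sample of wild-type mice without treatment, whose age the labels do not give separately. Dose, route and sex, and whether a sample came from 1 mouse or a pool, are not given in the sources used here. The comparison asks whether these miRNAs differ between MCT-treated and untreated lung. With 1 array per group there was no replicate check, so no test and no p-value was computed, and every value after ± is a standard deviation (SD) over the 3 repeat spots within an array.

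miR-126 is made from an intron of Egfl7, a gene of endothelial cells, and is among the best-known miRNAs of that cell type. Its 3p strand dampens Spred1 and Pik3r2, inhibitors of vascular endothelial growth factor signalling, and its 5p strand represses Dlk1. The miR-10 genes lie in the Hox clusters, which specify position along the body. miR-10a restrains NF-κB signalling in endothelium, and miR-10 supports angiogenesis in zebrafish by targeting flt1. miR-218 is made from Slit2 and Slit3, genes of guidance ligands, and represses the Slit receptors Robo1 and Robo2. miR-221 and miR-222 form 1 cluster, restrain Kit in endothelial cells and repress the cell cycle inhibitor Cdkn1b in smooth muscle.

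The array's target sequences show which members a probe could mistake for each other. They are given 5′ to 3′ in lower case with the seed, bases 2 to 8, in capitals.
miR-126-3p: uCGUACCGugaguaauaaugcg
miR-126-5p: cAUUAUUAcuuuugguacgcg
miR-10a-5p: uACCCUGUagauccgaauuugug
miR-10b-5p: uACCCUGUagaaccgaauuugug
miR-218-5p: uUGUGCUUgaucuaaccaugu
miR-221-3p: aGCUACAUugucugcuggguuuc
miR-222-3p: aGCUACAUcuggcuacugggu
miR-10a-5p and miR-10b-5p shared their seed and differed by 1 base of 23, U12A, counted from 1 at the 5′ end with the base of miR-10a-5p first. miR-221-3p and miR-222-3p shared their seed and first 8 bases, but stood 6 edits apart in all. The nearest other target of either miR-126 strand, and of miR-218-5p, was 8 edits away among the 1141. The nearest target to the miR-10 pair outside it was that of miR-100-5p, 3 edits from miR-10a-5p and 4 from miR-10b-5p. Its sequence is shown because its own ratio, given below, was large.
miR-100-5p: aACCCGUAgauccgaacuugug

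Each target of a member was matched by sequence to RefSeq hairpins of GRCm38.p6. miR-126-3p lay at chr2:26591402-26591423 and miR-126-5p at chr2:26591365-26591385, both on the plus strand within the span of Egfl7. miR-10a-5p lay at chr11:96317186-96317208 on the plus strand, within the span of Hoxb3, and its hairpin ended 992 bases before Hoxb4. miR-10b-5p lay at chr2:74726074-74726096 on the plus strand, where the spans of Hoxd3 and Hoxd4 overlap. miR-218-5p matched 2 hairpins on the plus strand, at chr5:48223966-48223986 within Slit2 and at chr11:35616840-35616860 within Slit3, so 1 probe reads the product of both. miR-221-3p lay at chrX:19146307-19146329 and miR-222-3p at chrX:19146903-19146923, both on the minus strand and outside the span of any other gene, with 504 bases between their hairpins. The table used holds gene spans, so exon and intron positions were not read from it. The Mir126a hairpin, with its 5p and then its 3p strand in capitals, shows how both members come from 1 transcript.
Mir126a: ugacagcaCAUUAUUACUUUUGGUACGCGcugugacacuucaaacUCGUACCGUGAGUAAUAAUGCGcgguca

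The arrays differed in background and brightness. Empty spots had a median intensity of 253 on the MCT and 101 on the untreated array, and the detection limit, the 95th percentile of the empty spots, was 284 on the MCT and 116 on the untreated array. A miRNA counted as detected when at least 2 spots exceeded the limit, as 316 did on the MCT and 403 on the untreated array. Both arrays detected 310, so detection in untreated lung only was common over all miRNAs. A miRNA was called higher or lower when it was detected on either array, its normalized ratio was at least 2-fold and its repeat spots did not overlap. Of the 409 miRNAs detected on either array, 17 were called higher (4.16%) and 9 lower (2.2%). This split depended on the scaling, with 142 higher and 0 lower without normalization, and 6 higher and 85 lower when the arrays were centred on the miRNAs detected on both. That centring made the median levels of those miRNAs equal, and left the median log2 ratio of all detected miRNAs at -0.72. Ratios below are therefore relative to the other miRNAs after quantile normalization. In whole lung, fewer cells of a type and less RNA per cell cannot be told apart.

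Of the 7 miRNAs, 2 were called higher in MCT-treated lung. These were miR-10b-5p, at 2.15-fold, and miR-221-3p, at 2.06-fold, whose call rested on 1 low spot in untreated lung. miR-218-5p had 1.91-fold, just under the threshold. miR-126-3p, miR-10a-5p and miR-222-3p lay between 0.922-fold and 1.03-fold, and miR-126-5p was not above the detection limit in MCT-treated lung. No member was called lower. The count of 2 higher calls among 7 stands beside the 4.16% of all detected miRNAs called higher and the 6.36% called in either direction, and the members had been chosen with earlier results of these data known.

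**Figure D1:**
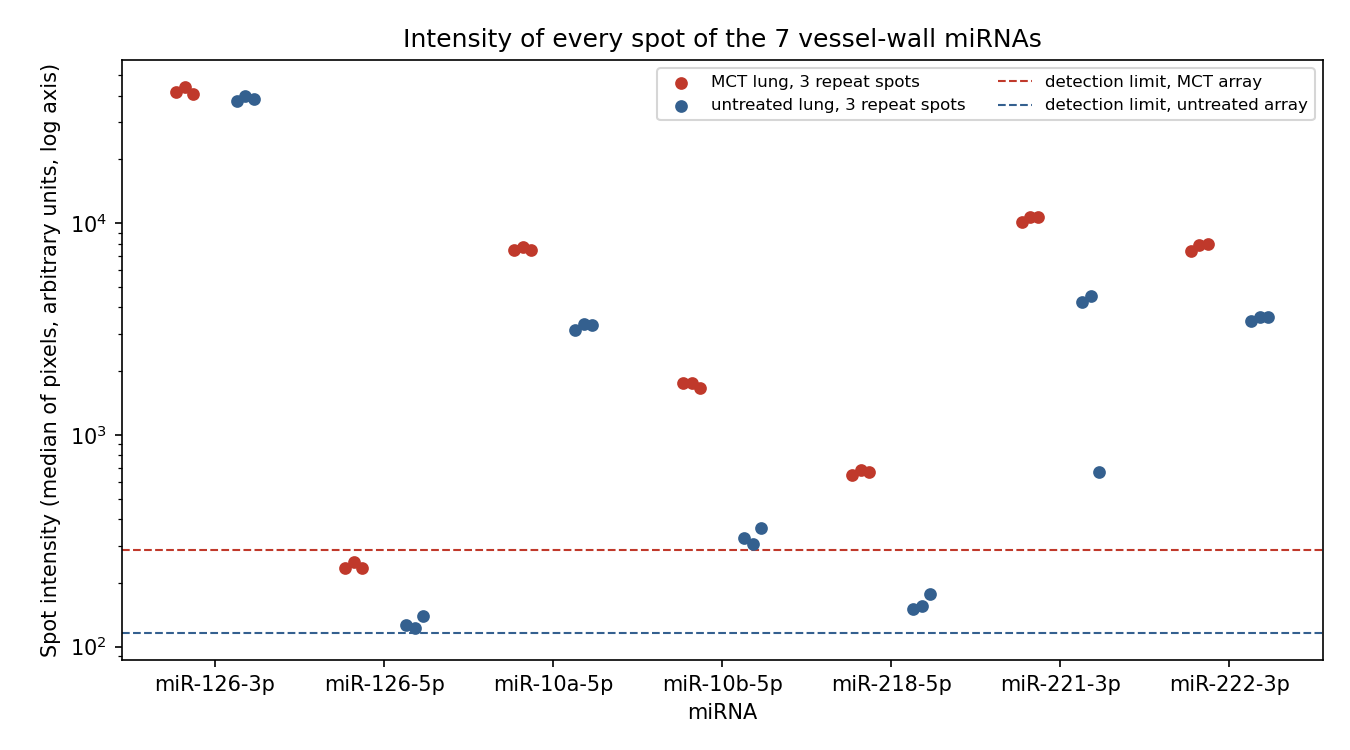
Spot intensity (arbitrary units, log axis) of each of the 7 miRNAs, with 3 repeat spots per array, MCT-treated lung left of untreated lung. Dashed lines mark the detection limits of 284 on the MCT and 116 on the untreated array; the single low untreated spot of miR-221-3p is at 666.

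mmu-miR-126-3p was bright in both lungs and had the smallest ratio of raw intensities of the 7. Its spots read 41456, 43759 and 40756 on the MCT array, against 37528, 39713 and 38637 on the untreated array. Before normalization the groups did not overlap, and the MCT mean was 1.09 times the untreated mean. The normalized log2 level was 15.22 ± 0.097 in MCT-treated and 15.34 ± 0.069 in untreated lung, a log2 ratio of -0.12 ± 0.12 with overlapping spots. The sign rested on the scaling. After background correction alone the log2 ratio was 0.12, and 44 of the 50 miRNAs nearest in brightness had a larger one, with a median of 0.56. Only 11 miRNAs detected on both arrays lay within 0.5 log2 units of its normalized level. The 50 therefore reached to miRNAs of unlike brightness and do not show how miR-126-3p compares with its peers. In the authors' processed table the intensity was 35014 in MCT-treated and 45996 in untreated lung, 1.31 times as high in the untreated lung. Centred on the miRNAs detected on both arrays the log2 ratio was -1.30, a call of lower, where the median of all detected miRNAs was itself -0.72. The brightest miRNA spot read 53544 on the MCT and 47014 on the untreated array, and whether the brightest probes still respond in proportion was not tested.

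mmu-miR-126-5p, from the same hairpin, was close to background. Its spots read 235, 250 and 235 on the MCT array, all under the limit of 284. On the untreated array they read 127, 122 and 140, all above the limit of 116. It was therefore detected in untreated lung only. This status was common, as 403 miRNAs were detected in untreated lung and 310 on both arrays. The level of miR-126-5p in untreated lung, 6.99 ± 0.15, was under the lowest level detected on the MCT array, 7.07, so no bound of a fold is given. The log2 ratio was -0.29 ± 0.18. It differed from that of miR-126-3p by -0.18 ± 0.21, but with miR-126-5p not above the limit on the MCT array this difference does not show whether the strands moved alike. The authors' processed intensity was 20.3 in MCT-treated and 43.8 in untreated lung. With the local background the log2 ratio of miR-126-5p was -1.02, a call of lower.

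mmu-miR-10b-5p had the largest log2 ratio of the 7. Its spots read 1751, 1749 and 1663 on the MCT array, against 326, 305 and 363 on the untreated array. All MCT spots lay far above all untreated spots, and all 6 exceeded their limits. The normalized log2 level was 10.04 ± 0.063 in MCT-treated and 8.93 ± 0.19 in untreated lung, a log2 ratio of 1.11 ± 0.20. Of the 409 detected miRNAs it had the 11th largest ratio. Of the 50 miRNAs nearest in brightness, 48 had a smaller ratio before normalization. The authors' processed intensity was 938 in MCT-treated and 380 in untreated lung, 2.47-fold. After removal of the dependence on GC content the log2 ratio was 0.96, and centred on the miRNAs detected on both arrays 0.94, both just short of the 2-fold threshold.

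mmu-miR-10a-5p, which differs from it by 1 base, was not called. Its spots read 7454, 7697 and 7478 on the MCT array, against 3127, 3326 and 3308 on the untreated array. These are 2.32 times as high on the MCT array before normalization, a gain near that of miRNAs of like brightness, 33 of 50 of which had a smaller one. The normalized level was 12.28 ± 0.019 in MCT-treated and 12.24 ± 0.047 in untreated lung, a log2 ratio of 0.04 ± 0.051 with overlapping spots. The authors' processed intensity was 5586 in MCT-treated and 4132 in untreated lung, 1.35-fold. A constant scaling of an array acts alike on both probes, and the log2 ratio of miR-10b-5p exceeded that of miR-10a-5p by 1.07 ± 0.20. It exceeded it under all 15 alternatives run on this difference, by 0.77 (the authors' values) to 1.27 (empty spots subtracted). Binding of 1 member's RNA to the other's probe was not tested.

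Of the other miRNAs of the Hox clusters, none was detected on both arrays. miR-196a-5p, miR-196b-5p, miR-615-3p and miR-615-5p were not detected on either array, while miR-196a-2-3p and miR-196b-3p, added after their values were seen, were detected in untreated lung only, at log2 ratios of -0.19 ± 0.081 and -0.21 ± 0.14. Of the other strands of the miR-10 hairpins miR-10b-3p was not detected and miR-10a-3p was detected in untreated lung only. miR-100-5p was called higher, with a log2 level of 12.15 ± 0.051 in MCT-treated and 10.38 ± 0.079 in untreated lung and a log2 ratio of 1.77 ± 0.094. Its relative miR-99a-5p had 0.59 ± 0.028 and miR-99b-5p 0.32 ± 0.11. The ratio of miR-10b-5p thus lay between those of miR-100-5p and miR-99a-5p, and that of miR-10a-5p below all of them.

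mmu-miR-218-5p was dim but detected on every spot. Its spots read 647, 683 and 664 on the MCT array, against 150, 156 and 176 on the untreated array. The groups did not overlap, and the untreated spots were at 1.60 times the median of the empty spots. The normalized level was 8.45 ± 0.041 in MCT-treated and 7.52 ± 0.22 in untreated lung, a log2 ratio of 0.94 ± 0.22. The call turned on small steps of the processing. The log2 ratio was 1.01 with the median of the spots, 1.05 with the authors' values (278 in MCT-treated and 108 in untreated lung) and 1.63 with the empty-spot median subtracted, but 0.76 with cyclic loess and 0.74 without background correction. The 3p strands, which differ between the Slit2 and Slit3 hairpins, were not detected, so the arrays did not show which hairpin contributed. On the untreated array 1 spot of miR-218-2-3p read 320 beside 105 and 106.

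mmu-miR-221-3p was called higher because of 1 spot. Its spots read 10088, 10649 and 10619 on the MCT array, against 4239, 4506 and 666 on the untreated array. After normalization the untreated spots were at 12.59, 12.66 and 9.96 on the log2 scale, all below the MCT spots. The SD over spots was 0.042 on the MCT and 1.54 on the untreated array. The log2 ratio of 1.04 ± 1.54 was 0.20 with the median of the spots and 0.14 without the third spot, which ended the call. In the authors' processed table the intensity was 7829 in MCT-treated and 5266 in untreated lung, 1.49-fold, also short of the threshold.

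mmu-miR-222-3p, its cluster partner, had 3 even spots on both arrays, 7403, 7915 and 7943 on the MCT against 3440, 3619 and 3598 on the untreated array. The normalized level was 12.30 ± 0.050 in MCT-treated and 12.37 ± 0.027 in untreated lung, a log2 ratio of -0.07 ± 0.057 with overlapping spots. The difference between the log2 ratios of miR-221-3p and miR-222-3p was 1.11 ± 1.54, within the spread of the spots, and without the third spot it was 0.22. The authors' processed intensity of miR-222-3p was 5857 in MCT-treated and 4460 in untreated lung. The 5p strands of both hairpins were not detected.

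**Figure D2:**
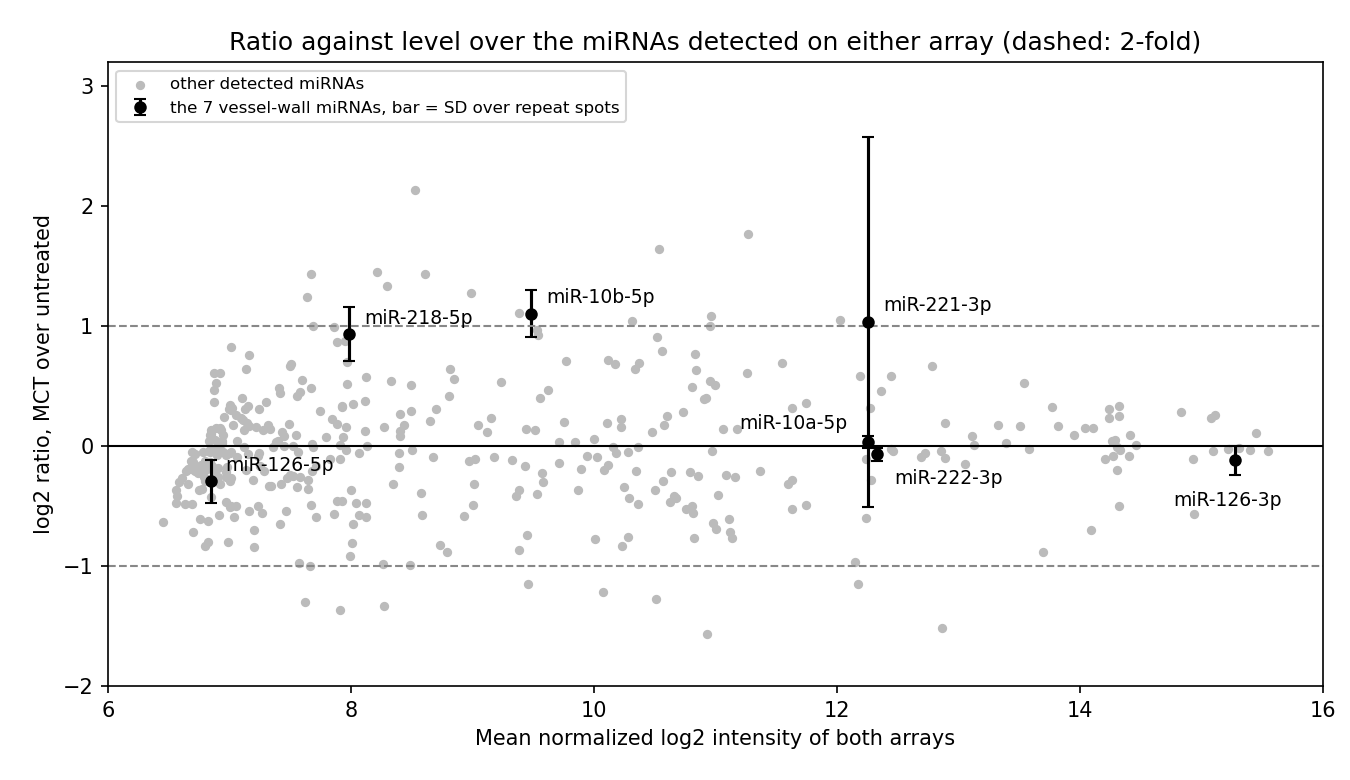
The log2 ratio of MCT-treated over untreated lung against the mean normalized log2 intensity of both arrays, for the 409 miRNAs detected on either. Bars on the 7 named miRNAs are SDs over repeat spots; miR-10b-5p and miR-221-3p lie above the 2-fold line, and miR-221-3p has an SD of 1.54.

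Across the members 4 of 7 had a positive log2 ratio, against 43.8% of all detected miRNAs, and the median was 0.04, against -0.04 for all detected miRNAs. Over the 6 members detected on both arrays the median was 0.49, against 0.02 for all 310 such miRNAs. The median thus moved with 1 member near background. The repeat spots of the arrays did not overlap for 4 of the 7 members, miR-126-5p, miR-10b-5p, miR-218-5p and miR-221-3p, against 69.7% of all detected miRNAs. The GC content of the members' targets lay between 38.1% and 52.4%. With the GC trend of the arrays removed no member was called higher or lower, although miR-10b-5p, miR-221-3p and miR-218-5p still had the largest log2 ratios of the 7, at 0.96, 0.91 and 0.77.

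**Figure D3:**
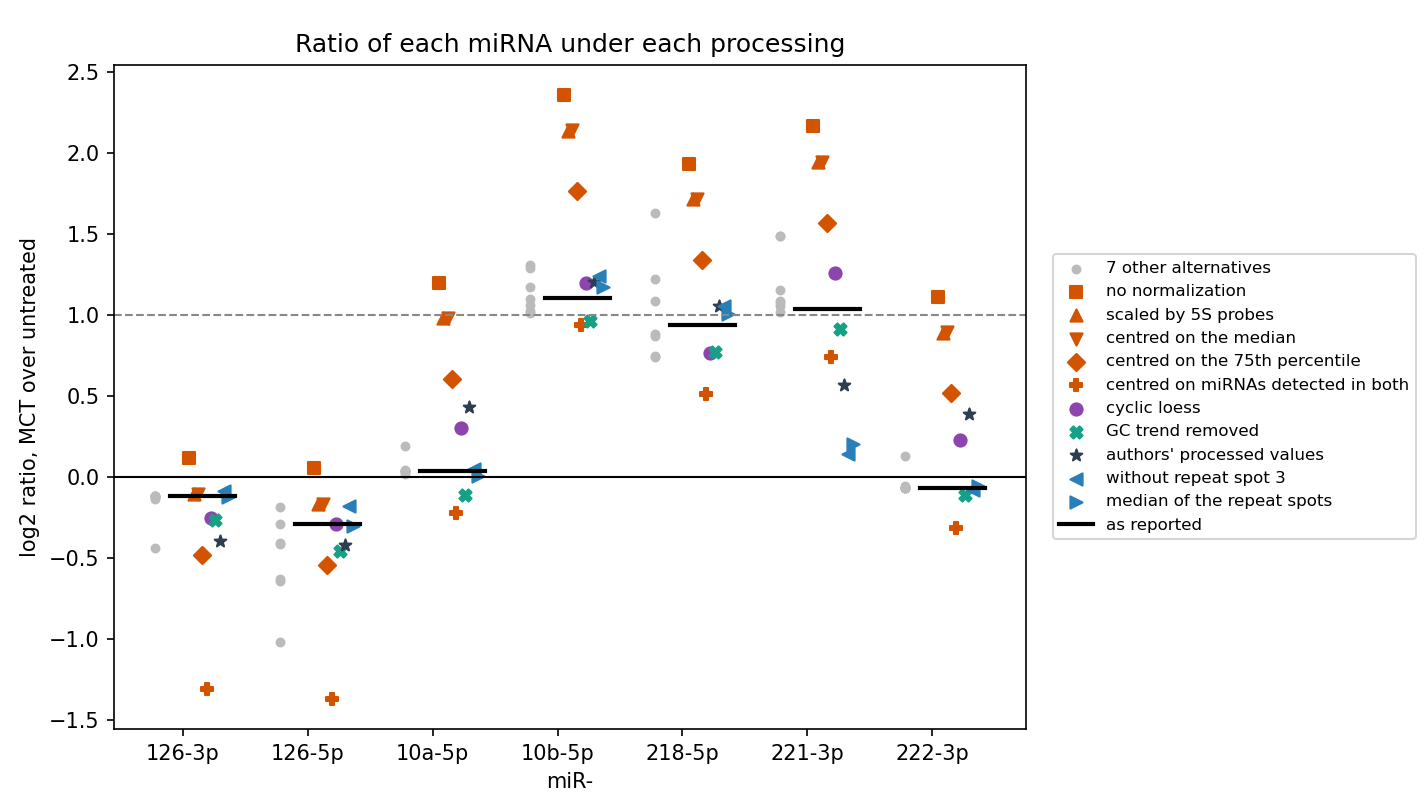
The log2 ratio of MCT-treated over untreated lung of each miRNA as reported (black line) and under 17 alternatives (symbols); the dashed line marks 2-fold. miR-10b-5p stays between 0.94 and 2.36, miR-221-3p reaches down to 0.14, and the miR-126 strands lie below 0 except without normalization.

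Of 24 other miRNAs described in endothelial cells, 21 were detected and none was called higher or lower, where 6.36% of all detected miRNAs were called. At that share few calls would fall in a list of this size. The median log2 ratio was 0.16, against -0.04 for all detected miRNAs, and 15 of the 21 ratios were positive, against 43.8% of all detected miRNAs. The largest ratios were those of miR-34a-5p, a p53 target, at 0.91 ± 0.032, miR-322-5p at 0.65 ± 0.067, miR-132-3p at 0.55 ± 0.16 and miR-181b-5p, a restraint on NF-κB signalling in endothelium, at 0.55 ± 0.027. The ratios of the list spanned -0.34 to 0.91, with miR-10b-5p above it at 1.11 ± 0.20. miR-218-5p, at 0.94 ± 0.22, differed from miR-34a-5p by less than the spread of its spots, and miR-221-3p lay inside the range, at 0.14, without its low spot.

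Markers of other cells of the lung gave medians between -0.18 and 0.48. The summed levels below are set mainly by the brightest miRNAs of each list and do not measure the amount of a cell type. Of 5 smooth muscle miRNAs 4 were detected, with a median log2 ratio of 0.48 and a range of 0.28 to 0.70, and a log2 of their summed level of 15.62 in MCT-treated and 15.31 in untreated lung. Of 8 epithelial miRNAs 7 were detected, with a median of 0.46 and a range of -0.49 to 0.77, and a summed level of 14.22 in MCT-treated and 13.97 in untreated lung. Of 6 white blood cell miRNAs 4 were detected, with miR-342-3p called higher at 1.05 ± 0.11 and miR-223-3p, of myeloid cells, called lower at -1.21 ± 0.21, while miR-142-3p and miR-142-5p were not detected. Their summed level was 13.90 in MCT-treated and 13.76 in untreated lung. Of 4 red blood cell miRNAs 2 were detected, at -0.04 and -0.31, with a summed level of 15.19 in MCT-treated and 15.25 in untreated lung. Of 5 heart muscle miRNAs 2 were detected, miR-133a-3p, which the smooth muscle list also holds, and miR-1a-3p, with a summed level of 13.09 in MCT-treated and 13.02 in untreated lung, while miR-208a-3p, miR-208b-3p and miR-499-5p were not above the limit on either array. miR-221-3p and miR-10b-5p are not made by endothelium alone, and the part of other cells in their ratios was not tested.

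**Figure D4:**
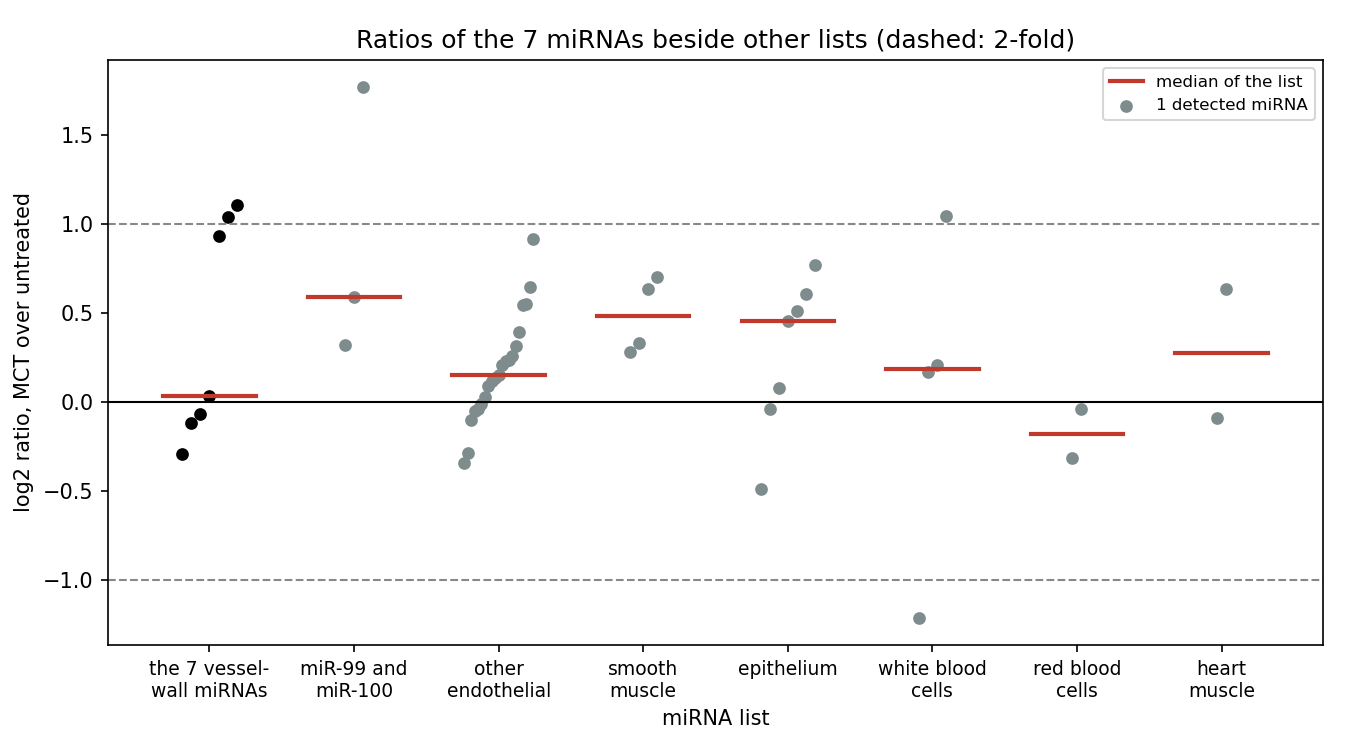
The log2 ratio of MCT-treated over untreated lung for each detected miRNA of the 7 named and of other lists, with the median of each list as a red line and 2-fold dashed. The 7 miRNAs fall into 3 near or above 2-fold and 4 near or below 0. Among the 3 is miR-221-3p, whose log2 ratio was 0.14 without its low untreated spot.

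For each member detected on both arrays, the miRNA with the closest log2 ratio was sought among those within 0.5 log2 units of its level. Between 11 and 74 candidates stood open to a member, so a close match is built into the choice. Over these 2 arrays the closest was miR-467e-3p for miR-10b-5p (1.11 for both), miR-1186b for miR-218-5p (0.99 against 0.94), and miR-146b-5p for miR-221-3p (1.05 against 1.04). The match of miR-221-3p rests on its 1 low untreated spot, without which its ratio was 0.14. The closest was let-7b-5p for miR-126-3p (-0.10 against -0.12), miR-25-3p for miR-10a-5p (-0.03 against 0.04) and miR-22-3p for miR-222-3p (-0.06 against -0.07).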

How the data were processed

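Per the labels' protocols, a service provider tailed and tagged the total RNA, hybridised it to a microfluidic chip and stained it with Cy3. The scanner tables deposited by the authors give each spot's median pixel intensity on a linear scale without background subtraction, per the file headers. A second deposited table has 1 intensity per probe as processed by the authors, by steps not given in sources used here; log2 values of it used a pseudocount of 50.

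Scanner intensities were corrected with normexp (limma 3.58.1, R 4.3.3, offset 50) fitted on all spots, control spots were left out, log2 values of miRNA spots were quantile normalized, and 3 spots were averaged. The SDs of both arrays were combined in quadrature for a ratio. The number of arrays limits the precision. The steps were tested on simulated arrays, with changes larger than 2-fold planted in bright miRNAs and even noise over spots. That test does not cover dim miRNAs, ratios near 2-fold or a single outlying spot. Sequences are from the scanner tables, and hairpins and positions from RefSeq tables of GRCm38.p6; all 7 targets matched a hairpin. The members, lists and rules were chosen with earlier results of these data known. All members, their other strands, other Hox miRNAs and miR-99 and miR-100 could be named, with up to 4 further endothelial miRNAs of the largest ratios; the named markers of other cells were added after their values were seen. Alternatives changed the background, offset, scaling, spots, detection, threshold and GC trend. Added after the data were seen were the brightness neighbours, centring on miRNAs detected on both arrays, and the median over members so detected. Figures used Python 3.11.15 and matplotlib 3.10.9.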

Additional observations from a re-analysis of the deposited data

How the results depend on the processing

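No paired analysis was possible because each group held 1 array. The count of 2 members called higher was 5 without normalization and 0 with the GC trend removed, with a 3-fold threshold and when centred on the miRNAs detected on both arrays. It was 2 or 3 under the other alternatives, always with miR-10b-5p among them. The 2 were miR-10b-5p and miR-218-5p, without miR-221-3p, with the median of the spots, without the third spot and with the authors' values. No member was called lower except 1 with the local background (miR-126-5p) and 1 when centred on the miRNAs detected on both arrays (miR-126-3p). The members' median log2 ratio of 0.04 was 1.20 without normalization, 0.98 scaled by the 5S probes, 0.98 and 0.60 centred on the median and on the 75th percentile, 0.30 with cyclic loess, 0.43 with the authors' values, -0.11 with the GC trend removed, -0.22 centred on the miRNAs detected on both arrays and 0.49 over the members detected on both arrays. Those scalings moved the median of all detected miRNAs too, to 0.70, 0.48, 0.49 and 0.11 in the first 4 and to -0.72 in the centring on miRNAs detected on both arrays. With cyclic loess and the authors' values it was -0.06 and -0.11. In all of these the members' median stood further above that of all detected miRNAs than the reported 0.04 against -0.04. With the GC trend removed the median of all detected miRNAs was -0.04, above that of the members. The difference between the miR-10 members was 0.77 with the authors' values, and that between the miR-126 strands -0.51 with the empty-spot median subtracted and -0.90 with the local background. Of the 119 values of single members under 17 alternatives, 77 moved by less than the SD of the spots, or 60 of 102 without miR-221-3p, whose wide SD from 1 spot takes in all of its values. No called ratio changed sign; the uncalled miR-126-3p, miR-126-5p, miR-10a-5p and miR-222-3p took the opposite sign in 1, 1, 2 and 7 alternatives. Over all detected miRNAs the 17 higher and 9 lower calls were 46 and 38 with the empty-spot median subtracted, 37 and 36 with the local background, 23 and 19 with an offset of 16, 97 and 0 with the 5S scaling and with median centring, 49 and 8 with the 75th percentile, 8 and 6 with the GC trend removed, 20 and 16 with the authors' values, 46 and 44 at 1.5-fold and 3 and 0 at 3-fold. The causes were not tested. miR-126-5p and the untreated level of miR-218-5p lie close to background, which limits their ratios.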

Other observations

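The untreated spot at 666 that lowered miR-221-3p was next to an unusually bright spot of the other strand of its hairpin. In the same column and the neighbouring row, the third spot of miR-221-5p read 514, against 98.9 and 99.0 for its repeats, while on the MCT array the spots of miR-221-5p read 239, 267 and 251. The other 7 spots around the low spot read 83.5 to 101 on the untreated array. On the untreated array 10 of the 1141 probes had a spot more than 1 log2 unit from the median of its repeats, and on the MCT array 5.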
